A study of Mus musculus with 6 samples.

Results

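*Vegfa*, *Vegfb*, *Pgf*, *Kdr*, *Flt1*, *Nrp1*, *Angpt2*, *Tek*, *Plvap*, and *Esm1* are the ligands, receptors, and capillary genes of the vascular endothelial growth factor (VEGF) axis in islets, and they are 10 of the 32285 genes in the count tables, found by symbol. They were measured in dispersed pancreatic islets, cell by cell, in 1 droplet library from each of 3 WT and 3 β14-3-3ζ–KO mice. By the study's methods, isolated islets were kept in culture overnight before dispersal, and dead cells were then removed. The levels are thus those of islets after culture, and the part of culture in them was not tested. KO mice carried Ins1-CreThor, a Cre driven from the *Ins1* gene of β cells, together with *Ywhaz* alleles whose exon 4 lies between LoxP sites, and WT mice were littermates with the same Cre. All mice were on a C57/BL6 background and were 12 to 14 weeks of age, and the labels name no treatment for these libraries. By its promoter the Cre acts in β cells, so that the other cell types are neighbours of deleted cells.

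The islet is one of the most densely vascularized tissues of the body. Its endocrine cells secrete VEGF-A, which binds VEGF receptor 2 (encoded by *Kdr*) on capillary endothelial cells and keeps the capillaries dense and fenestrated, so that hormones pass into the blood. VEGF receptor 1 (*Flt1*) binds VEGF-A, VEGF-B, and placental growth factor and signals weakly, Neuropilin-1 (*Nrp1*) is a coreceptor, and angiopoietin 2 (*Angpt2*) acts on the receptor Tie2 (*Tek*). *Plvap* forms the diaphragms of fenestrae, and *Esm1* encodes endocan, a proteoglycan secreted by endothelial cells.

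Start sites of 3 members with unlike cell type patterns are given first, because a promoter is where a cell type–restricted gene is read. *Vegfa* (chr17:46016993-46032369, minus strand, GENCODE vM21 on GRCm38) was measured in every cell type given, with its highest means in β cell–like and δ cell–like cells. *Kdr* (chr5:75932827-75978458, minus strand) and *Flt1* (chr5:147561604-147726011, minus strand) were measured almost wholly in endothelial cells. The sequences are the 250 bases before 1 RefSeq start of each gene on GRCm38.p6, 5′ to 3′ on the strand of the gene, at chr17:46032378-46032627, chr5:75978456-75978705, and chr5:147726012-147726261. Capitals mark the ETS core motifs CCGGAA and AGGAAG and the GC box GGGCGG on either strand.
Vegfa promoter: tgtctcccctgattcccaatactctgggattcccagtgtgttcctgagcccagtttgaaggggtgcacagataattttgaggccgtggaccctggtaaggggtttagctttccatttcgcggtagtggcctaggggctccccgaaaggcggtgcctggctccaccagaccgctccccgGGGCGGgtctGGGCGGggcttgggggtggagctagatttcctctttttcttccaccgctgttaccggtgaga
Kdr promoter: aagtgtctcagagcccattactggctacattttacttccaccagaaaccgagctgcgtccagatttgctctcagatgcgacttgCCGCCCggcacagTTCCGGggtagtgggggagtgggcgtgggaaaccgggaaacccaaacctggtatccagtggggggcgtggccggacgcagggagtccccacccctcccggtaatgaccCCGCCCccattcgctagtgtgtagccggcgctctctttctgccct
Flt1 promoter: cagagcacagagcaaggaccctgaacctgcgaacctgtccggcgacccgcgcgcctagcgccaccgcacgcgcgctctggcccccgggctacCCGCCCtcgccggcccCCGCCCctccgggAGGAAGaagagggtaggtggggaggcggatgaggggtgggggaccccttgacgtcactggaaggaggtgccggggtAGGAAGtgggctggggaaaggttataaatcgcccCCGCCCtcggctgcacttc
The *Vegfa* window printed held 2 GC boxes and neither ETS core. A second *Vegfa* start, with its window at chr17:46025164-46025413, is not printed. That window held 1 GC box, neither ETS core, and 1 ACGTG, the core motif of hypoxia factors, which 16.6% of all windows held. The *Kdr* window held 1 CCGGAA and 2 GC boxes, and the *Flt1* window held 2 AGGAAG and 3 GC boxes. Of 32851 RefSeq promoter windows of the same length, 12.0% held CCGGAA, 29.5% held AGGAAG, and 32.7% held GGGCGG, so that each match is common. *Esm1* (chr13:113209659-113218098, plus strand, 3 exons), which was as endothelial as both receptors, held none of these motifs in its window at chr13:113209409-113209658.
Esm1 promoter: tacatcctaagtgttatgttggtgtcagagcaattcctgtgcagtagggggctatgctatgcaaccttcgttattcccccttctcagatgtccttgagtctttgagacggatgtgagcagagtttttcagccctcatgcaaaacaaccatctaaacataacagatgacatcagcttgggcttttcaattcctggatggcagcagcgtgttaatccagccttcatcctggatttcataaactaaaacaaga

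The libraries held 74083947 to 98294915 unique molecular identifiers (UMIs), each a captured RNA molecule, over 43445 barcodes, of which 25819 were kept as cells. The median of UMIs per kept cell ran from 3337 to 25750 between libraries. Of the kept cells, 164 carried a barcode sequence that also occurs in another library. Levels are given as CPM, in which a gene's UMIs are divided by the UMIs of all cells of its type in that library and multiplied by 1000000, and values are listed for WT libraries 1 to 3 and then KO libraries 1 to 3. In β cell–like cells the deleted gene, *Ywhaz*, read 162, 175, and 172 CPM in WT against 18.4, 16.3, and 18.6 CPM in KO libraries, without overlap. Endothelial-like cells had 509, 417, and 497 CPM of *Ywhaz* in WT against 455, 356, and 418 CPM in KO libraries, with overlap.

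Clusters were built without the 10 genes, so that neither the clusters nor their names used them, but they were built from other genes of the same cells. The endocrine sources were 4856 β cell–like, 784 α cell–like, 673 δ cell–like cells, and 194 cells of a *Ppy*-led cluster. The receiving side held 1099 endothelial-like cells, with 10 of 10 endothelial markers in at least 10% of cells and a summed marker level of 9196 to 11907 CPM. Markers of stellate cells in them summed to 16.6 CPM at most. Those of pericytes summed to 270 to 451 CPM, with 3 of 9 in at least 10% of cells. β cell markers summed to 29792 to 66695 CPM in WT and 24557 to 116448 CPM in KO endothelial-like cells, which is mostly insulin RNA. Of the 1099 cells, 851 had 10% or less of their UMIs on insulin genes, and values in these are given where they differ. The 313 stellate cell–like cells held 8 of 8 stellate markers but also 8 of 9 pericyte markers, with 18 to 109 cells per library, and they are described as mixed mesenchymal cells. Endothelial markers in them summed to 197 to 642 CPM. Their cluster was led by *Dcn*, *Col1a1*, *Col3a1*, *Ccl21a*, *Mmp3*, and *Ccl19*. WT library 2 gave 82 and KO library 2 gave 109 of them, and these libraries held 1381 and 1783 B cell–like cells. Whether all of the stellate cell–like cells come from within islets was not tested.

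*Vegfa* had its highest means in β cell–like and δ cell–like cells. Its lowest mean was in the endothelial-like cells that carry its receptors, and their range overlapped those of B and T cell–like cells. β cell–like cells had 250, 247, and 251 CPM in WT and 267, 171, and 239 CPM in KO libraries. δ cell–like cells had 261, 223, and 248 CPM in WT and 259, 192, and 226 CPM in KO libraries. The 2 types overlapped fully, with β above δ in 4 of 6 libraries, and KO library 2 was the lowest of its genotype in both.

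α cell–like cells had 155, 150, and 168 CPM of *Vegfa* in WT and 172, 141, and 158 CPM in KO libraries. The *Ppy*-led cluster had 82.1 to 103 CPM. The order of means ran from β (237 ± 33.9, SD, n = 6), δ (235 ± 26.2), stellate (178 ± 82.1), endothelial and *Rgs5* (164 ± 57.7), and α (157 ± 11.4) to macrophage-like cells (137 ± 61.2). It went on with the *Ppy*-led cluster (89.6 ± 7.94), B cell–like (59.0 ± 27.4), T cell–like (53.5 ± 8.74), and endothelial-like cells (47.6 ± 7.98). The ranges of each pair of neighbours in this order overlapped, so no neighbouring step was larger than the spread between libraries. B and T cell–like cells also held β cell RNA. β cell markers in them summed to a mean of 82437 and 93833 CPM, against 54272.5 CPM in endothelial-like and 441395 CPM in β cell–like cells. The part of β cell RNA in their *Vegfa* was not tested. KO library 1 held 13 B cell–like cells and WT library 3 held 10 T cell–like cells.

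**Figure D1:**
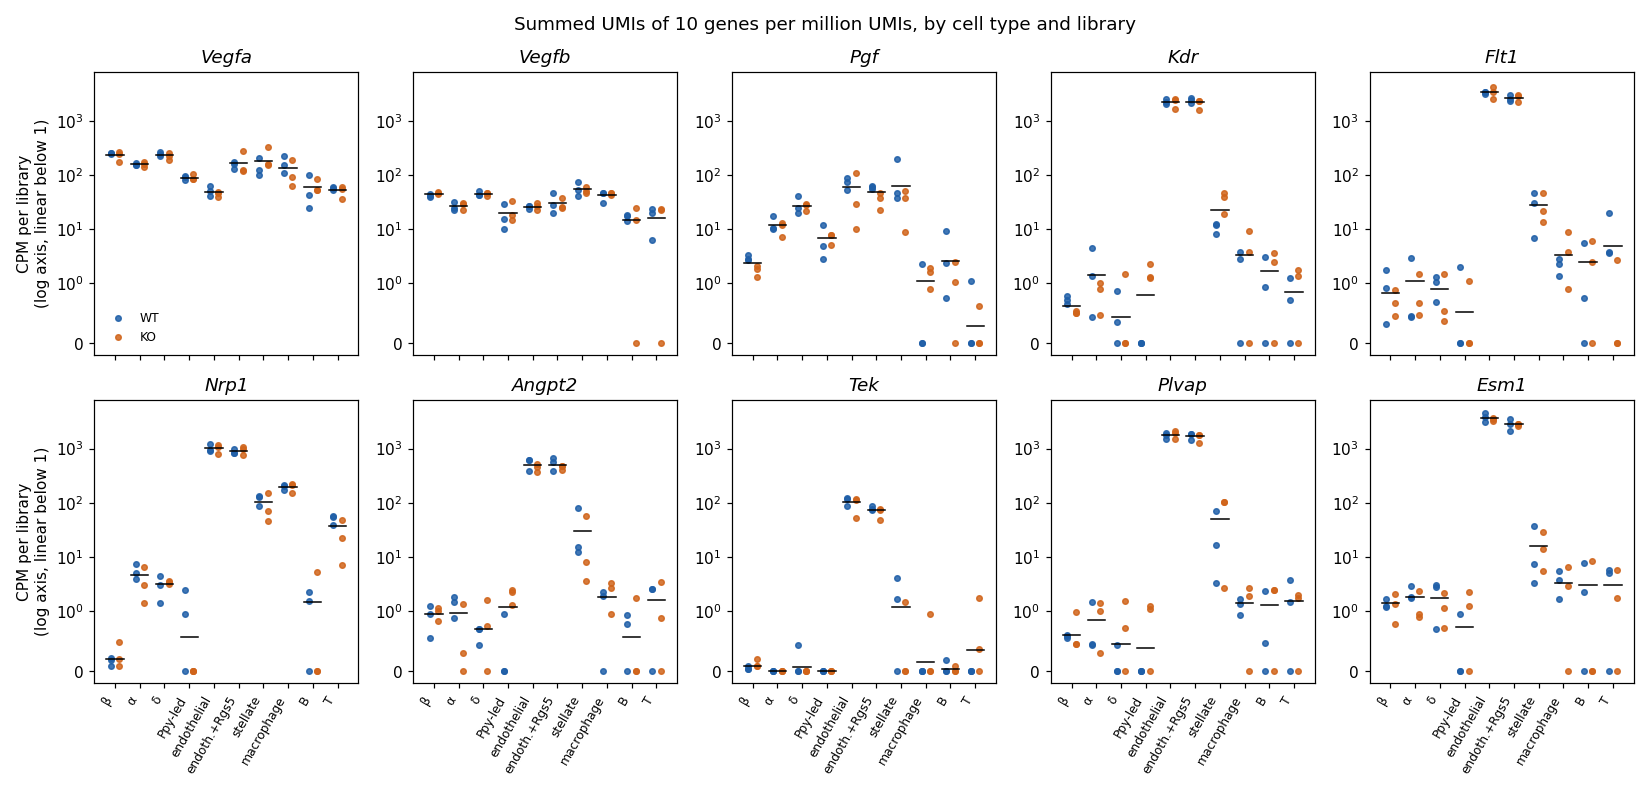
CPM of each gene in each library by cell type, on a log axis that is linear below 1, with WT libraries in blue, KO libraries in orange, and a line at the mean of the 6 libraries. *Vegfa* and *Vegfb* are spread over all types, whereas *Kdr*, *Flt1*, *Plvap*, and *Esm1* stand above 1000 CPM in both endothelial clusters and near 1 CPM in endocrine cells.

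The rank of β over δ cells rests on what the levels are divided by, because hormone transcripts took 43.0 to 47.5% of UMIs in β cell–like, 27.3 to 30.3% in α cell–like, and 22.1 to 27.9% in δ cell–like cells. In the *Ppy*-led cluster their share was 47.6 to 54.4%. Scaled to the UMIs of all other genes alone, in the same way as CPM, *Vegfa* was at 423 ± 50.3 in β cell–like, 311 ± 26.7 in δ cell–like, 223 ± 15.0 in α cell–like cells, and 178 ± 14.3 in the *Ppy*-led cluster. By edgeR's quasi-likelihood test on library sums with TMM factors, *Vegfa* was higher in β than in δ cell–like cells by 0.62 on the log2 scale (SE 0.12, adjusted p = 3.87e-05). On the scale of total UMIs the same difference was 0.01 (edgeR, adjusted p = 0.932).

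*Vegfa* was higher in β than in α cell–like cells by 0.95 on the log2 scale (SE 0.12, edgeR, adjusted p = 3.08e-08), and this call held under all 3 scalings. *Vegfa* was lower in α than in δ cell–like cells with a log2 difference of -0.34 (SE 0.12, edgeR, adjusted p = 0.0351). That call was lost without the library term (adjusted p = 0.065), without doublet calls (0.0621), and without any of KO library 3 (0.0826) or WT libraries 1 (0.0787), 2 (0.0649), and 3 (0.0534). Between β and α cells 2 of the 10 genes were higher in β cells and 2 lower, where 27.8% of 16355 genes were higher and 18.9% lower (46.8% in all). Between β and δ cells 2 were higher and 2 lower, against 29.5% and 19.1% of all genes (48.6% in all). Between α and δ cells 2 were lower and none was higher, against 15.0% and 14.7% of all genes (29.7% in all). The median of all genes moved with the scaling, from 0.10 with TMM to -0.49 with total UMIs between β and δ cells and from 0.09 to -0.28 between β and α cells. The counts of called genes moved with it. Between β and δ cells, 4822 genes were higher and 3122 lower with TMM, against 1246 and 8713 with total UMIs, where both higher members, *Vegfa* and *Vegfb*, lost their call. The share of called genes that were higher fell from 59.5 to 25.5% between β and α cells and from 49.6 to 21.8% between α and δ cells.

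**Figure D2:**
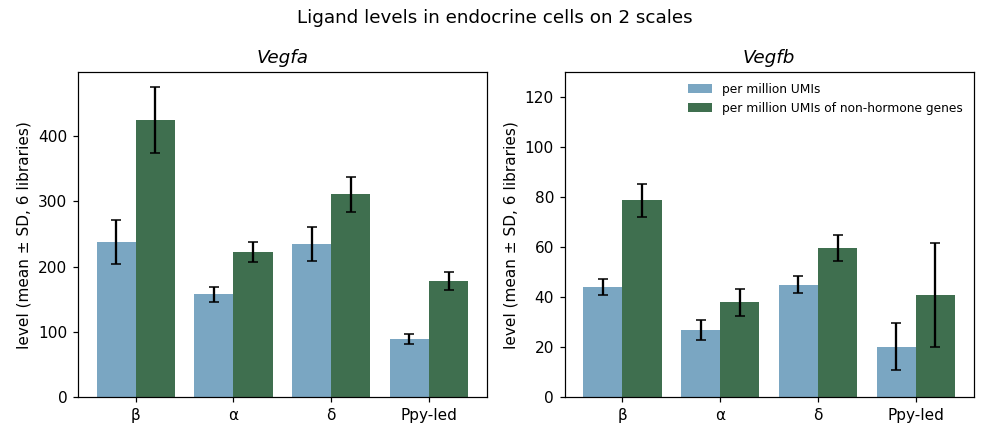
Mean ± SD over 6 libraries of *Vegfa* and *Vegfb* in the 4 endocrine clusters, scaled to all UMIs (light bars) and to UMIs of non-hormone genes (dark bars). β and δ cells stand level for *Vegfa* on the first scale (237 and 235) and apart on the second (423 and 311).

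*Vegfa* was low in endothelial-like cells, which also held insulin RNA. It was at 49.9, 61.2, and 40.7 CPM in WT and 38.8, 48.5, and 46.4 CPM in KO libraries. At the *Vegfa* to *Ins2* ratio of β cells in the same library, their *Ins2* UMIs would bring 25.8, 38.4, and 17.5 CPM in WT and 15.1, 43.3, and 23.5 CPM in KO libraries. *Ins2* was 1.88 to 9.30% of their UMIs, with KO library 2 the highest, whereas *Vegfa* was highest in WT library 2. In the 851 cells with less insulin RNA, *Vegfa* was at 34.9 to 49.0 CPM. How much of the endothelial value is made by endothelial cells was not tested.

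In stellate cell–like cells *Vegfa* was at 202, 123, and 101 CPM in WT and 330, 150, and 161 CPM in KO libraries, of which the *Ins2* ratio would bring 3.53 to 30.2 CPM. All 6 stellate values lay above that level. In the 236 of these cells with 10% or less insulin RNA, *Vegfa* was at 202, 122, and 47.8 CPM in WT and 308, 105, and 156 CPM in KO libraries, and the value of WT library 3 then rested on 9 UMIs. With TMM, *Vegfa* was lower in endothelial-like than in β cell–like cells (log2 difference -2.85, SE 0.14, edgeR, adjusted p = 3.22e-19) and lower in stellate than in β cell–like cells (log2 difference -1.0, SE 0.13, adjusted p = 3.92e-08). Thinned to 2000 UMIs per cell, 39.5% of β, 34.6% of δ, and 28.4% of α cell–like cells held a *Vegfa* UMI, against 8.52% of endothelial-like cells. The unthinned shares were 97.5% in β and 31.5% in endothelial-like cells.

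**Figure D3:**
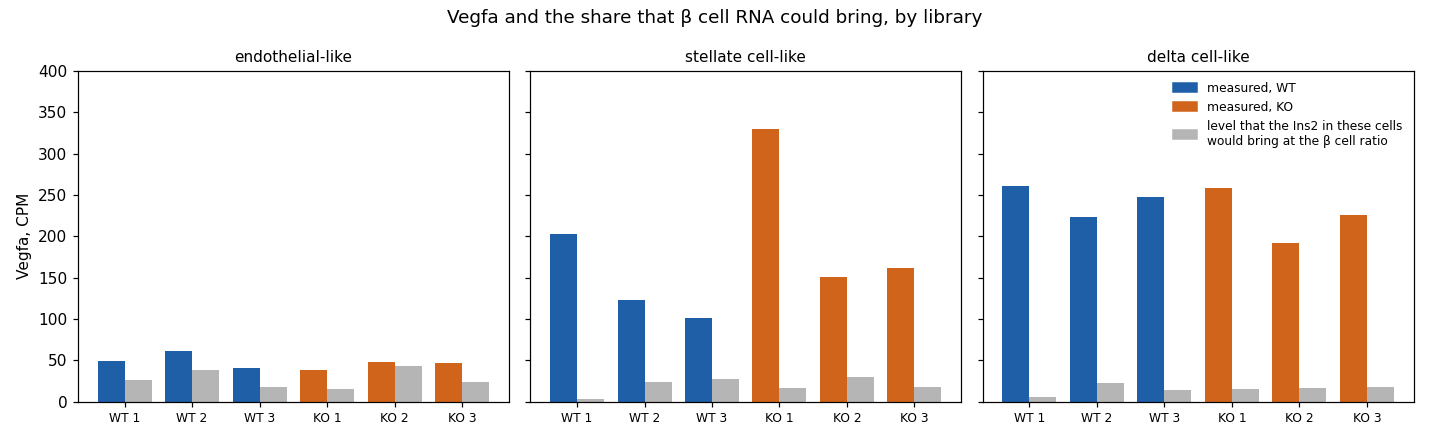
*Vegfa* CPM in each library (blue WT, orange KO) beside the level that the *Ins2* in the same cells would bring at the β cell ratio (gray). In endothelial-like cells of KO library 2 the bars are near each other (48.5 and 43.3 CPM), whereas in δ cell–like and stellate cell–like cells the gray bars stay at 30.2 CPM or less.

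*Vegfb*, a ligand of VEGF receptor 1, had a flatter profile than *Vegfa*. β cell–like cells had 39.3, 40.9, and 44.9 CPM in WT against 45.9, 45.0, and 47.6 CPM in KO libraries. Stellate cell–like cells had 40.2 to 75.6 CPM, δ cell–like cells 41.4 to 50.1 CPM, and macrophage-like cells 30.2 to 47.2 CPM, and these ranges overlapped that of β cells. The ranges of α cell–like cells (22.5 to 31.5 CPM) and of endothelial-like cells (22.4 to 29.8 CPM) lay below it.

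With TMM, *Vegfb* was higher in β than in α cell–like cells by 1.08 (SE 0.079, edgeR, adjusted p = 2.08e-13) and higher in β than in δ cell–like cells by 0.57 on the log2 scale (SE 0.074, adjusted p = 7.88e-08). The β to δ difference turned to -0.03 on the scale of total UMIs (edgeR, adjusted p = 0.748). *Vegfb* in endothelial-like cells was lower than in β cell–like cells (log2 difference -1.31, SE 0.084, adjusted p = 1.14e-15). In stellate cells the value was -0.30 against β cells with TMM (SE 0.094, adjusted p = 0.00546), but it turned to 0.25 with total UMIs (adjusted p = 0.0316) and missed the threshold with DESeq2 (-0.18, adjusted p = 0.135) and without WT library 2 (-0.22, adjusted p = 0.0847). No direction of *Vegfb* between stellate and β cells can be given.

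*Pgf*, which encodes placental growth factor, the other ligand of VEGF receptor 1, was scarce in β cells and present in vascular and mesenchymal cells. Endothelial-like cells had *Pgf* at 74.8, 87.0, and 53.1 CPM in WT and 110, 9.95, and 29.4 CPM in KO libraries. In stellate cell–like cells it was at 197, 46.2, and 37.8 CPM in WT and 38.2, 8.93, and 51.4 CPM in KO libraries. KO library 2 was the lowest in both types, and 1 WT library set the stellate maximum.

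Among endocrine cells *Pgf* ran from δ (19.9 to 40.5 CPM) through α (7.07 to 17.6 CPM) to β cell–like cells (1.29 to 3.29 CPM), with no overlap between these ranges. The *Ppy*-led cluster had 2.86 to 12.0 CPM, which overlapped the α and β ranges. By edgeR the log2 difference of *Pgf* was -2.92 between β and δ (SE 0.31, adjusted p = 1.67e-09) and -2.03 between β and α cells (SE 0.37, adjusted p = 2.82e-05). Between α and δ cells the value was -0.90 (SE 0.35, adjusted p = 0.0530), which missed the threshold. It passed under 7 alternatives, among them total UMIs (-1.13, adjusted p = 0.0124), DESeq2 (-1.08, adjusted p = 0.0164), and edgeR with TMM but no filter on low counts (-0.89, adjusted p = 0.0105), with adjusted p of 0.0389 at most over the 7. Endothelial-like and stellate cell–like cells did not differ beyond their spread in *Pgf* (log2 difference 0.03, SE 0.31, adjusted p = 0.965).

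*Kdr*, the main signalling receptor of VEGF-A, was an endothelial transcript. It was at 2232, 2012, and 2525 CPM in WT and 2564, 1647, and 2439 CPM in KO endothelial-like cells. In β cell–like cells *Kdr* was at 0.508 to 0.786 CPM, from 99 UMIs in 4856 cells, and its pooled level was 0.0271% of the endothelial level (95% Poisson interval 0.0220 to 0.0330). After thinning, 86.7% of endothelial-like cells and 0.186% of β cell–like cells held a *Kdr* UMI, with 66 of 1099 and 12 of 4856 cells left out as too shallow (91.3 and 1.91% unthinned). Stellate cell–like cells had 11.8, 8.03, and 12.6 CPM in WT and 19.1, 39.4, and 45.9 CPM in KO libraries.

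*Flt1*, whose product binds all 3 of the ligands above, was at 3446, 3165, and 3340 CPM in WT and 4275, 2555, and 3331 CPM in KO endothelial-like cells. KO libraries held both the highest and the lowest value, so the groups overlapped fully. After thinning, 95.7% of endothelial-like cells held a *Flt1* UMI, against 0.141% of β cell–like cells (95.6 and 2.03% unthinned). Its pooled β level was 0.0241% of the endothelial level.

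*Nrp1* was the receptor gene with the widest spread over cell types. Endothelial-like cells had 924, 911, and 1233 CPM in WT and 1076, 804, and 1183 CPM in KO libraries. An unnamed cluster with both endothelial and *Rgs5* transcripts came next with 777 to 1093 CPM. Macrophage-like cells had 154 to 225 CPM, followed by stellate cell–like cells with 46.3 to 152 CPM and T cell–like cells with 6.95 to 56.1 CPM. The macrophage range lay above the stellate range, without overlap.

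Within endocrine cells *Nrp1* was also uneven. Its pooled level was 0.440% of the endothelial level in α (64 UMIs, interval 0.339 to 0.563), 0.329% in δ (42 UMIs, 0.237 to 0.445), and 0.0198% in β cell–like cells (33 UMIs, 0.0136 to 0.0278). By edgeR it was lower in β than in α cells by a log2 difference of -3.98 (SE 0.42, adjusted p = 8.24e-10) and lower in β than in δ cells by -3.37 (SE 0.47, adjusted p = 3.00e-07). α and δ cells were not told apart (0.62, SE 0.40, adjusted p = 0.268). *Cdh5* and *Emcn*, endothelial markers given for comparison, were at 0.0614 and 0.0589% of their endothelial level in α cells and 0.0430 and 0.0353% in δ cells, whereas *Pecam1* was at 0.159 and 0.306%. All 10 endothelial markers together summed to a mean of 20.5 CPM in α and 24.1 CPM in δ cells, against 10809.5 CPM in endothelial-like cells. Whether the *Nrp1* signal in α and δ cells is free RNA was not tested.

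*Tek*, the receptor of the angiopoietins, was in endothelial-like cells at 124, 88.6, and 116 CPM in WT and 115, 52.6, and 114 CPM in KO libraries. KO library 2 stood below the others. No *Tek* UMI was found in 784 α cell–like cells, which allows up to 0.255% of the endothelial level by the exact Poisson bound, and 16 UMIs were found in β cell–like cells. Thinned endothelial-like cells held a *Tek* UMI in 15.2% of cases (49.6% unthinned), so single cells say little about its presence.

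*Angpt2*, the context-dependent ligand of Tie2 that endothelial cells themselves make, was at 381, 612, and 614 CPM in WT and 510, 373, and 449 CPM in KO endothelial-like cells. The groups overlapped. Among the receptor and capillary genes, *Angpt2* had the highest β level relative to endothelial cells, at 0.195% (156 UMIs, interval 0.166 to 0.228), against 0.0337% for *Cdh5*, 0.0359% for *Emcn*, and 0.0804% for *Pecam1* in the same cells. All 10 endothelial markers together summed to a mean of 10.1 CPM in β cell–like cells, against 10809.5 CPM in endothelial-like cells. Whether the *Angpt2* signal in β cells is free RNA was not tested.

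*Plvap*, the fenestral diaphragm gene, was at 1755, 1511, and 1978 CPM in WT and 2154, 1502, and 1922 CPM in KO endothelial-like cells. *Esm1*, the endocan gene, was at 3052, 3859, and 4622 CPM in WT and 3570, 3291, and 3645 CPM in KO libraries, with both extremes in WT. A *Plvap* UMI was found in 87.3% and an *Esm1* UMI in 92.0% of thinned endothelial-like cells, against 0.109 and 0.431% of β cell–like cells (unthinned 91.5 and 92.7% against 1.90 and 4.28%). *Plvap* in stellate cell–like cells ran from 2.73 to 103 CPM, with overlapping groups.

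All 10 genes passed edgeR's test between endothelial-like and β cell–like cells, 8 of them higher, where 73.5% of all 16355 genes passed in either direction and 31.0% were higher. The log2 differences of the receptors were 11.65 for *Nrp1* (SE 0.23), 11.45 for *Flt1* (SE 0.24), 11.26 for *Kdr* (SE 0.24), and 9.27 for *Tek* (SE 0.20). Those of the other capillary genes were 11.03 for *Plvap* (SE 0.34), 10.83 for *Esm1* (SE 0.20), and 8.41 for *Angpt2* (SE 0.25), and *Pgf* differed by 4.12 (SE 0.28). Adjusted p-values of these 8 genes ran from 1.82e-30 for *Esm1* to 6.96e-15 for *Pgf*. The median of all genes was -0.28 with TMM and 0.26 with total UMIs, the share of called genes that were higher was 42.2% and 60.8%, and no direction among the 10 genes turned with the scaling.

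Against stellate cell–like cells, 9 of the 10 genes passed, where 46.7% of all genes did (22.8% higher and 23.8% lower in endothelial-like cells). *Esm1* (8.10, SE 0.22), *Flt1* (7.08, SE 0.23), *Kdr* (6.52, SE 0.23), *Tek* (5.51, SE 0.29), *Plvap* (4.96, SE 0.28), *Angpt2* (3.86, SE 0.26), and *Nrp1* (3.31, SE 0.16) were higher in endothelial-like cells on the log2 scale. *Vegfa* (-1.85, SE 0.15) and *Vegfb* (-1.01, SE 0.11) were lower. The adjusted p of these 9 was 5.18e-09 at most. The step was smallest for *Nrp1* among the receptors, and endothelial markers in the stellate cluster were at 197 to 642 CPM, against 9196 to 11907 CPM in endothelial-like cells. Their part in the stellate values was not tested. Stellate cell–like against β cell–like cells gave 8 genes higher and 2 lower with TMM, *Vegfa* and *Vegfb*, of which *Vegfb* has no stable direction as given above. Of all genes, 30.3% were higher and 36% lower (66.4% in all). The balance of all genes reversed with the scaling, from 4963 higher and 5889 lower with TMM to 7050 higher and 3387 lower with total UMIs. Among the members, *Nrp1* was higher in stellate cells by 8.35 (SE 0.26) and *Pgf* by 4.09 (SE 0.35) on the log2 scale.

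The other genes of the pathway were also compared between endothelial-like and β cell–like cells, and they are given as counts beside those of all genes (73.5% past the threshold, 31.0% higher, and 42.5% lower), since some of them helped to build the clusters or, as *Ptprb*, to name them. Of 11 further ligands and receptors with enough UMIs, 10 were past the threshold in endothelial-like against β cell–like cells and all 10 were higher, with a median log2 difference of 4.69 over the 11 genes, against -0.28 over all genes. They included *Flt4*, the VEGF receptor of lymphatic vessels (10.58), *Ptprb*, the phosphatase that restrains Tie2 (10.51), *Plxnd1*, a semaphorin receptor (10.26), *Tie1* (10.22), and *Nrp2*, the second neuropilin (9.38). *Angpt1*, the ligand that activates Tie2, fell short of 30 UMIs and was not tested.

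Of 29 genes of signalling and of targets in endothelial cells, 28 were higher and none was lower, with a median of 8.0. Among them were the ETS factors *Erg* (10.75), *Fli1* (8.96), and *Ets1* (9.04), the Notch ligand *Dll4* (8.0), the tip cell peptide *Apln* (9.96), and the endothelial nitric oxide synthase *Nos3* (6.04). *Plcg1*, the phospholipase that VEGF receptor 2 activates, was only 1.49 higher. Of 15 genes of oxygen sensing, which governs *Vegfa* transcription, 8 were higher and 5 were lower in endothelial-like cells with TMM. That is 86.7% past the threshold, against 73.5% of all genes. The hypoxia factor subunit *Epas1* was 9.52 higher and *Hif1a* 1.41 higher, whereas the mitophagy receptor *Bnip3* (-1.45) and the prolyl hydroxylase *Egln1* (-0.62) were higher in β cell–like cells. The median of all genes moved from -0.28 with TMM to 0.26 with total UMIs, and the list genes were read with TMM only. Whether differences as small as that of *Egln1* keep their direction with total UMIs was not tested.

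Endothelial-like cells split into 2 sub-clusters at a finer resolution, again built without the 10 genes, and the members differed between them. One of 743 cells was led by *Igfbp3*, *Gpihbp1*, *Cldn5*, and *Kcne3* with a median of 8540 UMIs, and the other of 355 cells by *Edn1*, *Cyyr1*, *Smad6*, and *Cd300lg* with a median of 6281 UMIs. These values are a description, since the sub-clusters come from the same cells. *Kdr* was at 1805 ± 218 CPM in the *Igfbp3*-led and 3508 ± 839 CPM in the *Edn1*-led sub-cluster (SD, n = 6) and was higher in the latter in 6 of 6 libraries, a ratio of 1.94. *Plvap* (1646 ± 219 and 2287 ± 499 CPM) and *Angpt2* (418 ± 89.1 and 705 ± 204 CPM) were also higher there in 6 of 6 libraries.

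*Pgf* went the other way. It was at 102, 116, and 71.3 CPM in WT and 137, 11.7, and 39.5 CPM in KO libraries in the *Igfbp3*-led sub-cluster, and at 0 to 14.4 CPM in the *Edn1*-led one. It was lower in the *Edn1*-led sub-cluster in all 6 libraries, and 639 of its UMIs came from the first against 14 from the second. *Nrp1* was higher in the *Edn1*-led sub-cluster in 5 of 6 libraries (940 ± 124 and 1255 ± 333 CPM). *Flt1* (3438 ± 549 and 3119 ± 799 CPM) and *Tek* (105 ± 29.0 and 94.6 ± 29.5 CPM) were lower there in 5 of 6 libraries, with ratios of 0.907 and 0.905. *Esm1* (3644 ± 660 and 3814 ± 766 CPM) was higher in 3 of 6.

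**Figure D4:**
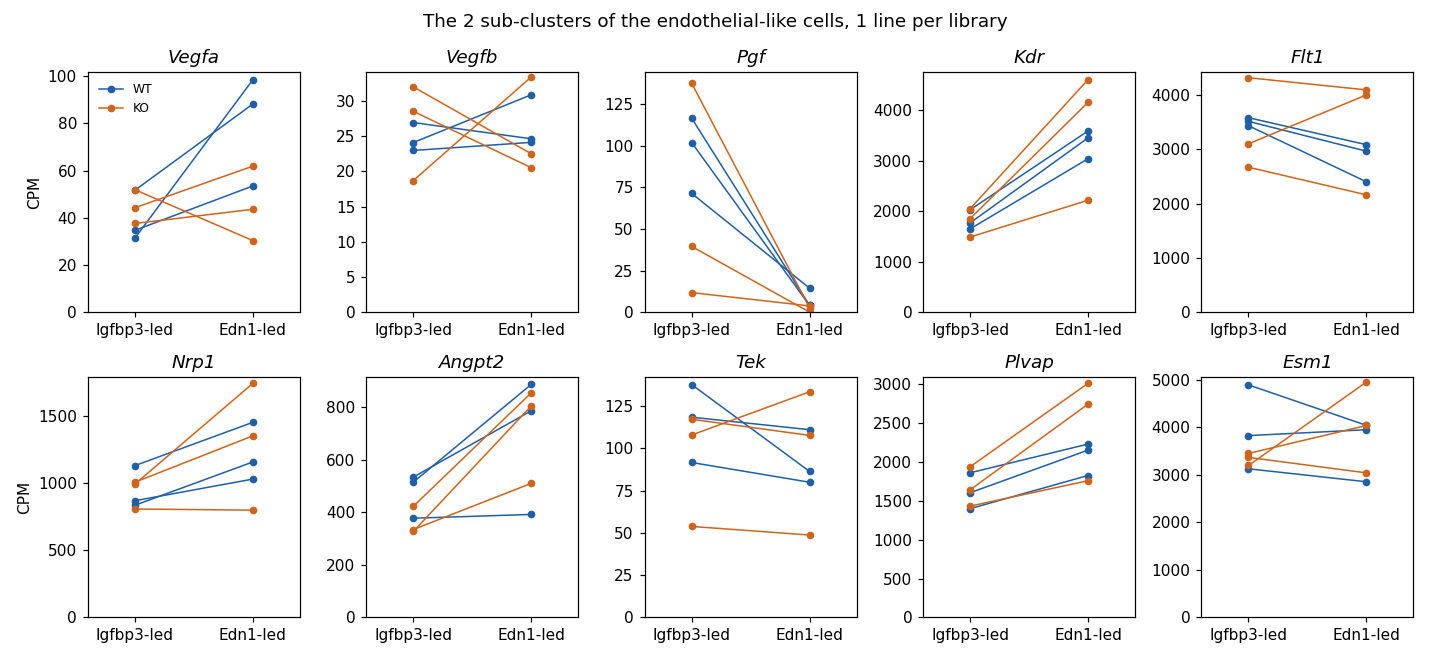
CPM of the genes in the *Igfbp3*-led and *Edn1*-led sub-clusters of the endothelial-like cells, with 1 line per library (blue WT, orange KO) and axes from 0. Lines for *Kdr*, *Angpt2*, and *Plvap* rise in all 6 libraries and those for *Pgf* fall in all 6, whereas those for *Esm1* cross.

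No member passed the test between KO and WT in a cell type where it was detected in enough cells to be tested, with edgeR on the library sums and adjustment over all genes. These were 24 combinations, with 2 members tested in β cell–like, 3 in α, 3 in δ, 2 in *Ppy*-led, 9 in endothelial-like, and 5 in stellate cell–like cells. The deletion acts in β cell–like cells, and KO cells that still held a *Ywhaz* UMI were excluded from this comparison. There 1 of 9684 genes was called (0.0103%), *Ywhaz* itself, which is at 0 by that choice, and 541 had an unadjusted p under 0.05. DESeq2 called 4 genes, and a fit with the replicate block called 29, none of them a member. *Vegfa* differed by -0.08 on the log2 scale (SE 0.11, edgeR, adjusted p = 0.929), with 269, 172, and 233 CPM in these KO cells.

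*Vegfb* was the member nearest to a difference in β cell–like cells. The KO cells without a *Ywhaz* UMI had 47.1, 45.2, and 47.5 CPM, all above the 39.3 to 44.9 CPM of WT libraries, as 14.7% of the genes tested there also had groups that did not overlap. Its log2 difference was 0.24 (SE 0.074), with an unadjusted p of 0.0111 and an adjusted p of 0.847 by edgeR. Its adjusted p was 0.135 with the replicate block, the lowest of any member under any alternative. *Pgf*, at 3.29, 2.75, and 2.67 CPM in WT and 2.39, 1.55, and 1.39 CPM in KO libraries, also had groups that did not overlap, but it was found in too few cells to be tested.

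In endothelial-like cells, none of 7107 genes was called by edgeR (0%), 2 were by DESeq2, and 221 had an unadjusted p under 0.05. The 9 members tested had log2 differences from -0.23 for *Angpt2* (SE 0.17) to 0.14 for *Vegfb* (SE 0.19), with *Kdr* at 0.01 (SE 0.15), *Flt1* at 0.07 (SE 0.16), *Nrp1* at 0.04 (SE 0.15), and *Tek* at -0.21 (SE 0.24). *Plvap* was at 0.13 (SE 0.14), *Esm1* at -0.08 (SE 0.15), and *Vegfa* at -0.14 (SE 0.19), and all adjusted p-values were 0.986 or more by edgeR. The groups of all 9 overlapped, against 8.06% of genes whose groups did not. With these SE, 3 against 3 libraries could not separate a small difference from 0.

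KO library 2 held the lowest value of *Kdr*, *Flt1*, *Nrp1*, *Angpt2*, *Tek*, *Plvap*, and *Pgf* in endothelial-like cells and the highest share of *Ins2*. In the 851 cells with less insulin RNA, its *Kdr* was at 2021 CPM against 2178 to 2599 CPM in the others, its *Flt1* at 3126 against 3372 to 4317 CPM, and its *Tek* at 59.0 against 95.5 to 131 CPM. *Kdr*, *Flt1*, and *Tek* thus stayed lowest in that library, and *Angpt2* did not (443 CPM, with WT library 1 at 414 CPM). The part of insulin RNA in the other differences was not tested.

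**Figure D5:**
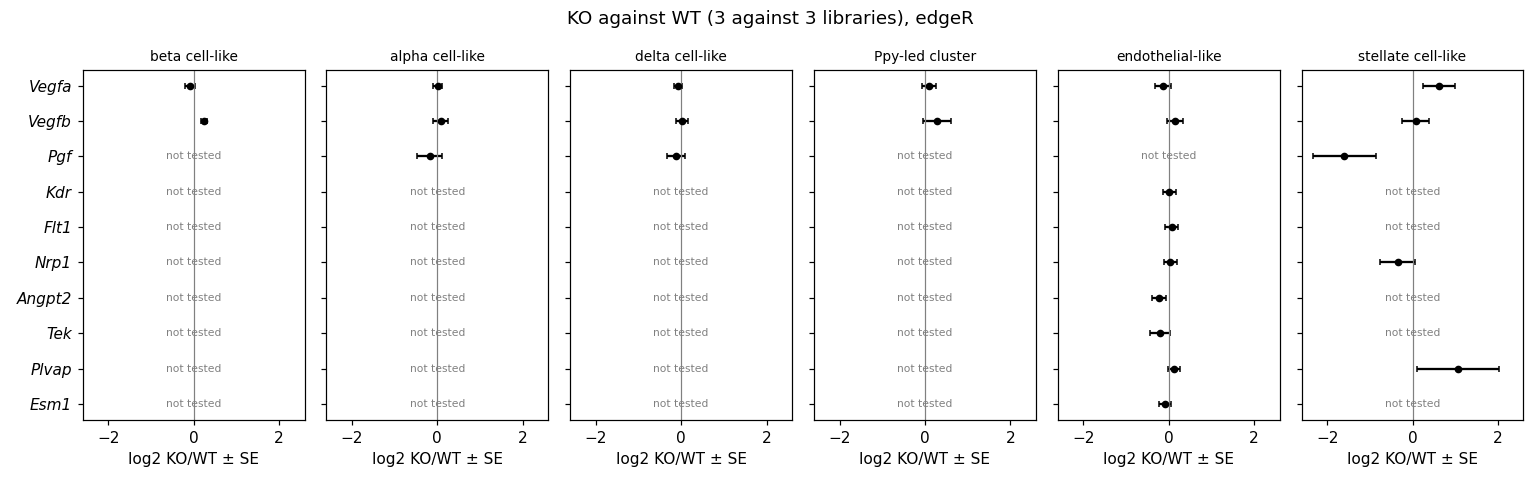
Log2 difference between KO and WT (points) with its SE (bars) from edgeR for each gene and cell type, 3 against 3 libraries, with genes that were found in too few cells given as not tested. Points of endothelial-like cells lie within -0.23 and 0.14, and those of stellate cell–like cells spread from -1.59 to 1.07 with SE up to 0.96.

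The endocrine neighbours gave the same picture. In α cell–like cells *Vegfa* (0.00665, SE 0.11), *Vegfb* (0.07, SE 0.17), and *Pgf* (-0.18, SE 0.29) were not called, where none of 8884 genes was (0%) and 4 were with the replicate block, and the groups of all 3 overlapped (9.37% of genes had groups that did not). In δ cell–like cells the values were -0.07 (SE 0.10) for *Vegfa*, 0.02 (SE 0.14) for *Vegfb*, and -0.12 (SE 0.21) for *Pgf*, with none of 9415 genes called and overlapping groups for all 3 (8.37% of genes had none). In the *Ppy*-led cluster, *Vegfa* (0.09, SE 0.16) and *Vegfb* (0.28, SE 0.33) were not called, where 2 of 8891 genes were (0.0225%, with 0.0112% higher and 0.0112% lower), and their groups overlapped, as 9.92% of genes did not. The unadjusted p was under 0.05 for 333 genes in α, 294 in δ, and 423 in *Ppy*-led cells.

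In stellate cell–like cells the spread was wider. *Pgf* differed by -1.59 (SE 0.73, unadjusted p = 0.0572, adjusted p = 1), *Plvap* by 1.07 (SE 0.96), *Vegfa* by 0.63 (SE 0.37), *Nrp1* by -0.34 (SE 0.41), and *Vegfb* by 0.07 (SE 0.31), and none passed edgeR's test, as none of 8354 genes did (0%), of which 147 had an unadjusted p under 0.05. Single libraries moved these values widely. Without 1 library they ran from -2.13 to -0.54 for *Pgf*, 0.54 to 3.34 for *Plvap*, 0.19 to 0.92 for *Vegfa*, and -0.88 to -0.058 for *Nrp1*. *Kdr* was not tested, but its KO libraries (19.1 to 45.9 CPM) lay above its WT libraries (8.03 to 12.6 CPM), where 6.40% of the genes tested had groups that did not overlap. It rested on 107 UMIs.

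The genotype difference was also compared between cell types by limma-voom, where the library was a random block. *Vegfa*'s log2 difference in endothelial-like cells differed by -0.06 from that in β cell–like cells (SE 0.27), and in α and δ cell–like cells the terms were 0.10 (SE 0.20) and 0.01 (SE 0.19). In stellate cell–like cells it was 0.52 (SE 0.25, unadjusted p = 0.0498, adjusted p = 1.00). For *Vegfb* the 4 terms ran from -0.19 (δ, SE 0.16) to 0.05 (stellate, SE 0.21). No term of a member passed, where 1 of 16355 genes (0.00611%) did in each of the 4 comparisons, *Ywhaz*. Terms of the receptor and capillary genes in endocrine cells rest on few UMIs (0 of *Tek* in α and 1 in δ cell–like cells, and 5 of *Kdr* in δ cell–like cells), so that they say nothing on a difference.

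Of the other pathway genes, none was called between KO and WT in any cell type by edgeR. Among 10 oxygen sensing genes tested in β cell–like cells, the median log2 difference was -0.09 against 0.00 over all genes, and 2 genes had an unadjusted p under 0.05. The lowest p-values were those of *Hif1a*, the oxygen-labile factor subunit (-0.21, SE 0.072), *Ero1l*, an ER oxidase (-0.33, SE 0.14), and *Bnip3* (-0.44, SE 0.24), and edgeR's adjusted p over all genes was 0.847, 0.847, and 0.851 for them. In endothelial-like cells 28 genes of signalling and targets had a median of -0.01 against 0.01 over all genes. *Apln* had the lowest p there (-0.68, SE 0.23, unadjusted p = 0.0137, adjusted p = 0.986 by edgeR), followed by *Igfbp7* (0.23, SE 0.12) and *Pdgfb* (0.23, SE 0.15). The 5 further receptors tested there had a median of -0.11, with *Ptprb* at -0.18 (SE 0.18), *Plxnd1* at -0.11 (SE 0.16), and *Flt4* at -0.08 (SE 0.13).

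The share of endothelial-like cells among kept cells was 8.14, 2.65, and 4.02% in WT libraries, against 5.97, 5.24, and 2.91% in KO libraries. The 95% Wilson interval of the highest was 6.98 to 9.47% and that of the lowest 2.32 to 3.04%, which cover counting error only. The WT mean was 4.94 ± 2.86% and the KO mean 4.71 ± 1.60% (SD, n = 3 each), with p = 1 in a 2-sided exact permutation test, which cannot give less than 0.1 here. The difference of -0.229 percentage points turned to 1.37 without WT library 1 and to 0.669 without KO library 3. B cells, T cells, and unnamed cells in the same denominator differed widely between libraries, so this is a share of recovered cells and not capillary density. Unnamed cells numbered 438, 4014, and 1597 in WT and 1191, 636, and 2294 in KO libraries.

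Over the 48 sums of 8 named clusters in 6 libraries, the genes whose log2 CPM was most like that of *Vegfa* among 12467 genes were *Plxnb2* (Pearson r 0.830), *Pex11a* (0.811), and *Prkar1b* (0.793). Those most like *Kdr* were *Myct1* (0.974), *Gpr4* (0.971), and *Cd300lg* (0.971), and those most like *Nrp1* were *Rac1* (0.939), *Plxnd1* (0.925), and *Pdgfb* (0.921). The sums of one library share its depth, and the values are a description across cell types.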

How the data were processed

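Islet cells of 3 WT and 3 β14-3-3ζ–KO mice were profiled with the Chromium Next GEM 3′ kit (v3.1), with 1 library per mouse. The authors deposited UMI counts for each gene and barcode, as whole numbers without normalization, and their processing notes name Cell Ranger 6.0.2, Seurat, and mm10. GENCODE vM21 (GRCm38) gave coordinates and held 32158 of the 32285 identifiers, and promoters came from RefSeq on GRCm38.p6, where *Angpt2* and *Plvap* had no entry. The 10 members and all gene lists were chosen with earlier results of these data known.

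Barcodes under 500 genes or over 10% mitochondrial UMIs were removed, and then doublets. Scrublet's own threshold was used in WT library 1 (12 doublets). In the other libraries it marked 0 to 0.0459% of barcodes, and the top-scored 0.8% per 1000 barcodes were removed instead (75 to 535). Cells were clustered (2000 variable genes without the 10 members, 30 components, 15 neighbours, Leiden resolution 1) into 25 clusters. A name needed at least 3 of its markers in at least 10% of cells at 1.5-fold or more and a median of at least 3500 UMIs. These limits followed a look at the clusters, and 8422 cells lay in clusters below that depth. α, δ, and *Ppy*-led droplets with over 10% insulin UMIs were left out, also chosen after seeing the data, as were the scales of total and of non-hormone UMIs.

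UMIs were summed per library and type. KO was compared with WT by edgeR's quasi-likelihood test (TMM, Benjamini-Hochberg over all genes tested) on genes detected in over 15% of cells of either genotype. Calls needed FDR < 0.05 and an absolute log2 difference > 0.1, the study's thresholds. In the KO against WT test, β cells of KO mice with any *Ywhaz* UMI were dropped, where the study removed those with incomplete deletion. Comparisons between cell types and the genotype by cell type terms kept these cells. Cell types were compared in 1 fit with a library term over genes with at least 30 UMIs, and genotype by cell type terms came from limma-voom. The edgeR step was also run on simulated counts, from which no error rate for these libraries is given. The genes named are the 10 members, *Ywhaz*, *Ins2*, the markers *Pecam1*, *Cdh5*, and *Emcn* (named after their values were seen), genes of the lists that were called or had the 3 lowest p-values, and the 3 genes most like *Vegfa*, *Kdr*, and *Nrp1* by Pearson r of log2(CPM + 1) over genes with at least 500 UMIs. Of called list genes, examples are named. Same-numbered WT and KO libraries deviated together in β (r = 0.524, 0.507, and 0.278 for pairs 1 to 3), α (0.248, 0.179, and 0.103), and endothelial-like cells (0.315, 0.401, and 0.120). In these types all 3 WT libraries correlated best with the KO library of their own number. The labels do not say what the numbers stand for. The tests given are without a block for the number and so ignore any such pairing. The blocked fit is an alternative whose counts stand beside the results they change. Intervals cover counting error only. Alternatives were DESeq2, median-of-ratios factors, no filter on low counts, no doublet calls, Leiden resolution 2, members kept in the variable genes, the replicate block, and leaving out each library. Python 3.11.15, scanpy 1.11.5, scipy 1.17.1, R 4.3.3, edgeR 4.0.16, limma 3.58.1, and DESeq2 1.42.0 were used.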

Additional observations from a re-analysis of the deposited data

Results flagged for a closer look

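The KO against WT difference of *Ywhaz*, the deleted gene, differed between β cell–like cells and each other type by limma-voom's genotype by cell type term. The log2 term was 3.01 for endothelial-like, 3.07 for stellate cell–like, 3.09 for α cell–like, and 3.16 for δ cell–like cells (adjusted p from 6.68e-12 to 9.23e-11). No term of *Vegfa* or *Vegfb* passed the threshold. Those of the receptor and capillary genes rest on few UMIs outside endothelial cells (0 of *Tek* in α and 1 in δ cell–like cells) and say nothing on a difference. The lowest unadjusted p among the 10 genes was 0.00918, for *Kdr* in stellate cell–like cells (log2 term 2.23, adjusted p = 1.00), where its level rested on 107 UMIs.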

How the results depend on the processing

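No member was called between KO and WT under any of 331 alternative values of 24 results, of which 297 kept their direction and 34 turned it while staying uncalled. Between cell types, 505 of 528 alternative values kept direction and call. The exceptions were in *Vegfb* of stellate against β cells, *Vegfa* and *Vegfb* of β against δ cells, *Vegfa*, *Pgf*, and *Nrp1* of α against δ cells, and *Pgf* of endothelial against stellate cells. The cause of each change below was not tested.
Genes called between KO and WT were, in β cells, 4 with DESeq2, 4 without the filter on low counts, and 29 with the replicate block. In α cells they were 57 without the filter and 4 with the block. In δ cells they were 20 without the filter, 8 with the block, and 2 with several-hormone droplets kept. In the *Ppy*-led cluster they were 0 with DESeq2, 1 with members left in the variable genes, 4 without doublet calls, 12 without the filter, and 8 with the block. In endothelial-like cells they were 2 with DESeq2 and 42 without the filter, and in stellate cells 1 without the filter. Without 1 library, counts ran from 2 to 8 in the *Ppy*-led cluster (8 without WT library 2), 0 to 1 in α cells (1 without WT library 1), 0 to 4 in δ cells (4 without WT library 1), and 1 to 2 in the stellate genotype term (2 without KO library 1, KO library 2, or WT library 2).
Without doublet calls the log2 difference of *Vegfa* turned to -0.069 in the *Ppy*-led cluster, -0.029 in α cells, and 0.00225 in endothelial-like cells, that of *Vegfb* to -0.028 in δ cells, that of *Kdr* to -0.025 and *Nrp1* to -0.00795 in endothelial-like cells, and *Nrp1* of α against δ cells to -0.75. With members left in the variable genes, *Vegfa* turned to -0.056 in the *Ppy*-led cluster and *Vegfb* to -0.031 in δ and -0.029 in stellate cells. With several-hormone droplets kept, *Vegfa* turned to -0.044 in α and 0.019 in δ cells, and with the replicate block to -0.00216 in α cells. The block changed no other direction and no call of a member. In δ, *Ppy*-led, and stellate cells, pairs 3 correlated at 0.0366, 0.0159, and -0.0818. Pairs 1 and 2 correlated at 0.196 and 0.175 in δ, 0.0592 and 0.0679 in *Ppy*-led, and 0.355 and 0.49957 in stellate cells. All 3 WT libraries correlated best with the KO library of their own number in δ and *Ppy*-led cells, and 2 did in stellate cells. With labels that do not explain the numbers, whether they pair all libraries is therefore not settled. With total UMIs *Vegfb* turned to -0.033 between β and δ and to 0.25 between stellate and β cells, and with median-of-ratios factors *Pgf* turned to -0.054 between endothelial and stellate cells. The δ term of *Vegfa* turned to -0.00425 at Leiden resolution 2 and -0.00499 without the filter, and the stellate term of *Vegfb* to -0.12 at resolution 2. The endothelial share differed by 0.0911 points without doublet calls.
Without 1 library, log2 differences between KO and WT ran from -0.29 to 0.033 for *Vegfa*, -0.028 to 0.24 for *Vegfb*, -0.084 to 0.14 for *Kdr*, -0.11 to 0.19 for *Flt1*, -0.064 to 0.17 for *Nrp1*, -0.39 to 0.063 for *Tek*, and -0.22 to 0.042 for *Esm1* in endothelial-like cells. They ran from -0.19 to 0.038 for *Vegfa* in β cells, -0.074 to 0.087 for *Vegfa* and -0.35 to 0.076 for *Pgf* in α cells, -0.33 to 0.26 for *Pgf* and -0.042 to 0.12 for *Vegfb* in δ cells, -0.21 to 0.79 for *Vegfb* in the *Ppy*-led cluster, and -0.099 to 0.31 for *Vegfb* in stellate cells. *Pgf* of endothelial against stellate cells ran from -0.27 to 0.61. The genotype terms ran from -0.050 to 0.061 (*Vegfa*, δ), -0.32 to 0.17 (*Vegfa*, endothelial), -0.21 to 0.00769 (*Vegfb*, endothelial), and -0.19 to 0.13 (*Vegfb*, stellate), and the endothelial share from -1.37 to 1.37 points.
At resolution 2 the test of stellate cells between genotypes was not run, because a library held under 10 such cells; the genotype by cell type fit has no such minimum. With 3 libraries per group and 18 stellate cell–like cells in the smallest, low genes and small differences were beyond reach.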

Other observations

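A cluster of 289 cells held endothelial and *Rgs5* transcripts together and was given no cell type name. Its median was 18758 UMIs per cell, against 7921 in endothelial-like cells, and 9 of 9 pericyte markers were in at least 10% of its cells. Ductal markers in it summed to 1191 to 2816 CPM, against 56.9 to 98.6 CPM in endothelial-like cells. Whether its droplets hold more than 1 cell was not tested. Its *Kdr* (2378, 2174, and 2674 CPM in WT and 2333, 1549, and 2349 CPM in KO libraries) and *Nrp1* (777 to 1093 CPM) overlapped the levels of endothelial-like cells (1647 to 2564 and 804 to 1233 CPM). Its *Vegfa* was at 130, 174, and 163 CPM in WT and 273, 125, and 120 CPM in KO libraries, above the 38.8 to 61.2 CPM of endothelial-like cells without overlap, and the level that its *Ins2* would bring was 2.36 to 18.3 CPM. *Pgf* in it was at 61.6, 55.8, and 61.0 CPM in WT and 22.4, 46.5, and 38.0 CPM in KO libraries, which was not tested. *Esm1* was at 2136 to 3574 CPM and *Tek* at 47.2 to 86.4 CPM.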
